A study of Mus musculus with 2 samples.

Results

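The genes described are 38 cell cycle genes, 18 of S phase and 20 of G2 and mitosis (G2/M), of 55487 genes in the expression matrix. They were matched by symbol, all 38 were found, and each symbol belonged to 1 gene ID. The cells were CD4+ T cells of C57BL/6 Foxp3.Cre-YFP mice, a strain in which regulatory T cells (Tregs), the cells that express Foxp3, carry a Cre recombinase and a yellow fluorescent protein. The pool held Tregs without Bmal1 (KO), a core gene of the circadian clock, and with it (WT), from visceral adipose tissue (VAT, 34000 sorted cells) and spleen (32000 sorted cells), taken at zeitgeber times ZT0 and ZT12. The mice were kept in rooms with a reversed light cycle, and every group carried the Foxp3.Cre-YFP allele. The groups were marked with hashtag antibodies, pooled and run as 1 gene expression library and 1 hashtag library. The hashtag features are only numbered, so none of the 6 hashtags in use could be tied to a tissue, genotype or time. Each hashtag is therefore given its own values, no hashtag counts as a replicate of another, and no test between groups was possible.

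A cell that divides first copies its DNA in S phase and then, after the G2 gap, separates the copies in mitosis. Genes for the replication machinery are switched on at the entry to S phase by E2F transcription factors, and genes for the mitotic machinery later, through complexes that contain B-MYB (Mybl2) and FOXM1. Resting T cells stay outside this cycle, and activated T cells divide rapidly. Tregs of adipose tissue are known to depend on the interleukin-33 receptor, the product of Il1rl1.

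Promoter sequences of the members were searched for short letter patterns, and 7 are shown. Whether these patterns go with the levels of the members was not tested. The RefSeq table (GRCm38.p6, 250 bases before to 50 after each gene's start) held 15 of the 18 S members and 16 of the 20 G2/M members. E2F-type letters (TTTCCCGC, TTTGGCGC, TTTCGCGC or TTTGCCGC, on either strand) were in the windows of 7 of those 15 S members and of 1 of those 16 G2/M members, against 2.60% of all 27025 genes in the table. The 7 S members were Mcm3, Mcm5, Mcm6, Mcm7, Cdc6, Cdt1 and Uhrf1, and the G2/M member was Cdk1. CHR-type letters (TTTGAA or TTCGAA, on either strand) were in the windows of 12 G2/M members and of 2 S members, Mcm2 and Mcm7, against 21.7% of all genes. CCAAT, on either strand, was in 14 G2/M members and 10 S members, against 41.1% of all genes. All 12 G2/M members with CHR-type letters also held CCAAT, a combination found in 9.65% of all genes. In 11 of those 12 members a CHR-type match began between 60 bases before and 40 bases after the start, against 6.58% of all genes and 30.4% of the genes with CHR-type letters. E2F-type matches began there in 4 of the 7 S members, against 1.003% of all genes and 38.5% of the genes with E2F-type letters. The span from 60 bases before to 40 after the start was not part of the written plan, so the counts within it are a description. All these counts describe letters in a window and not bound sites. The S members with E2F-type letters and the highest levels in T cells were Mcm6 (chr1:128359656-128359955, minus strand), Mcm7 (chr5:138171834-138172133, minus strand) and Mcm3 (chr1:20820263-20820562, minus strand). The G2/M members with CHR-type letters and the highest levels were Hmgb2 (chr8:57511593-57511892, plus strand), Top2a (chr11:99024140-99024439, minus strand) and Mki67 (chr7:135716330-135716629, minus strand). Cdk1 (chr10:69352863-69353162, minus strand) is shown because it held both. Each is written 5′ to 3′ along the gene, with E2F-type matches in capitals for Mcm6, Mcm7 and Mcm3, CHR-type matches in capitals for Hmgb2, Top2a and Mki67, and both in capitals for Cdk1. In Mcm6, overlapping matches run together.
Mcm6: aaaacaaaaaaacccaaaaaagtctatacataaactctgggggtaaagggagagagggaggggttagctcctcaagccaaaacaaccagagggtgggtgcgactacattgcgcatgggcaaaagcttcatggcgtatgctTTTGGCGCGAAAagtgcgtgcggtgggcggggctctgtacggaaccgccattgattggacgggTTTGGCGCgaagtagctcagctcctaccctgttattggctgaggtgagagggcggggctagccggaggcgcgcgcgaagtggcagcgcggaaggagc
Mcm7: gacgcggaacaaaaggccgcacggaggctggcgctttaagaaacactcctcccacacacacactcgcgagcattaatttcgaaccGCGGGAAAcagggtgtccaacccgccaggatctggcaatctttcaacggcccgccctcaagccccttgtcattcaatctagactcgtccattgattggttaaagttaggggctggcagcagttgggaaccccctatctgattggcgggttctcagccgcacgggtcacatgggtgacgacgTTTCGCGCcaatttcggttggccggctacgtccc
Mcm3: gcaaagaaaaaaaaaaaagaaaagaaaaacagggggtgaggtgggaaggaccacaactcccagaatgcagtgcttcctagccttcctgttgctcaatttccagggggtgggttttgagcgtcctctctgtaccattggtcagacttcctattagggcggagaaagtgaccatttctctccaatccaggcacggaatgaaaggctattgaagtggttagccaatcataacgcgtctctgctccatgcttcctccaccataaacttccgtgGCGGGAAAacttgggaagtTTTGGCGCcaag
Hmgb2: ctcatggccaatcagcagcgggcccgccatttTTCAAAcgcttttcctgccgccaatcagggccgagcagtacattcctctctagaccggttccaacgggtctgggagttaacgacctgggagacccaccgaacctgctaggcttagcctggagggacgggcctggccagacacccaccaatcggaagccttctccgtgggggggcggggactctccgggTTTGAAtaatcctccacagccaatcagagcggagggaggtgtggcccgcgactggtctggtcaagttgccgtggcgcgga
Top2a: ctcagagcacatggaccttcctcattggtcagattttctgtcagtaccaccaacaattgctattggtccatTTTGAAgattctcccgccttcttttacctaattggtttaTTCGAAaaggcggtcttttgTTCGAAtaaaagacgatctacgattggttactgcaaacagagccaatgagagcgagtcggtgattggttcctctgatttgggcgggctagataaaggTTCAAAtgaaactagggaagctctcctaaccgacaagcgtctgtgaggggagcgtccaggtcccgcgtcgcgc
Mki67: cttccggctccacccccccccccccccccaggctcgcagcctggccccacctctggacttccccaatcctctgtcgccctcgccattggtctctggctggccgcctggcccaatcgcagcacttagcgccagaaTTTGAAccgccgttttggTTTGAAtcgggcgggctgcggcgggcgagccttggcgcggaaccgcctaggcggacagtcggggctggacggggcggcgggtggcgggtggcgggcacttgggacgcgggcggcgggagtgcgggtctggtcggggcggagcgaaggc
Cdk1: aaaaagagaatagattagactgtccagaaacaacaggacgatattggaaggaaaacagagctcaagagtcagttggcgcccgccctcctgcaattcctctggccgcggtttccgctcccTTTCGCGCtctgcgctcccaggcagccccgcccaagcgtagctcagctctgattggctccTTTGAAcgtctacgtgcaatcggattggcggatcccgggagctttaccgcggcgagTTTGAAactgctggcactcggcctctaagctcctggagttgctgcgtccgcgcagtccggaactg

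Of 22960 cell barcodes, 21236 had at least 500 genes and under 10% mitochondrial molecules, and 19312 of those met a T cell rule on 6 T cell receptor and CD3 genes. A leading hashtag, with at least 10 counts and at least 2 times the next, was found for 15218 of these T cells, 1551 to 3782 per hashtag. Their median depth per hashtag was 2812 to 3487 molecules counted by unique molecular identifiers (UMIs). Levels are given as CPM, the count of a gene scaled to 1000000 UMIs of the summed cells. Because the library reads 3′ ends, a captured transcript gives about 1 count whatever its length. Intervals are 95% and exact, Poisson for levels and Clopper-Pearson for shares, and they cover counting error only. Where a count was 0, the limit given is 3 counts of the total. For shares of cells, each cell was thinned to 2000 UMIs, which left out 2430 shallower T cells and kept 12788.

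Few of these T cells carried RNA of several cell cycle genes. A cell was put in the G2/M class when at least 3 of 17 G2/M members were detected in its 2000 UMIs, and in the S class when at least 3 of 16 S members were. Slbp, Dut, Hmgb2, Stmn1 and Tacc3 were left out of both class rules. The G2/M class held 187 of 12788 T cells (1.46%, 1.26 to 1.69%), the S class 334 (2.61%, 2.34 to 2.90%), and 83 cells were in both. The 438 cells in either class are called the cycling class. Of the S class, 200 cells sat exactly at 3 members, next to 1027 cells at 2, and of the G2/M class 28 sat at 3, next to 100 at 2. At 4, 5, 6 and 7 members the S list held 60, 34, 18 and 14 cells, and the G2/M list 25, 30, 29 and 17, with 23 at 9. The G2/M numbers thus did not fall steadily above 3 members. Both classes are cuts on a count, and neither was shown to be a separate cell type. The S class is the less sharply bounded of the 2.

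The G2/M class took 2.59% of the cells of hashtag 1 (57 of 2204, 1.96 to 3.34%), 2.78% of hashtag 2 (45 of 1617, 2.04 to 3.71%), 2.23% of hashtag 3 (30 of 1347, 1.51 to 3.16%) and 2.16% of hashtag 4 (27 of 1248, 1.43 to 3.13%). It took 0.415% of hashtag 5 (14 of 3376, 0.227 to 0.695%) and 0.467% of hashtag 6 (14 of 2996, 0.256 to 0.783%). The intervals of hashtags 5 and 6 lay below those of the other 4 hashtags, and among hashtags 1 to 4 all intervals overlapped. The S class took 4.22, 3.83, 2.90 and 3.04% of hashtags 1 to 4, against 1.60% of both hashtag 5 (1.20 to 2.08%) and hashtag 6 (1.18 to 2.12%). The interval of hashtag 3 (2.07 to 3.94%) overlapped both at its lower end, and such overlap does not by itself show equal shares. On all UMIs of each cell the S class grew to 8.88, 10.9, 8.25, 10.6, 7.32 and 5.32% in hashtags 1 to 6. The G2/M class on all UMIs took 2.92, 3.65, 2.27, 3.03, 0.740 and 0.581% in the same order. Among cells that HTODemux, a hashtag classifier, called singlets, the thinned G2/M share was 2.44, 2.24, 1.99, 1.64, 0.335 and 0.598%, with hashtags 5 and 6 again lowest.

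**Figure D1:**
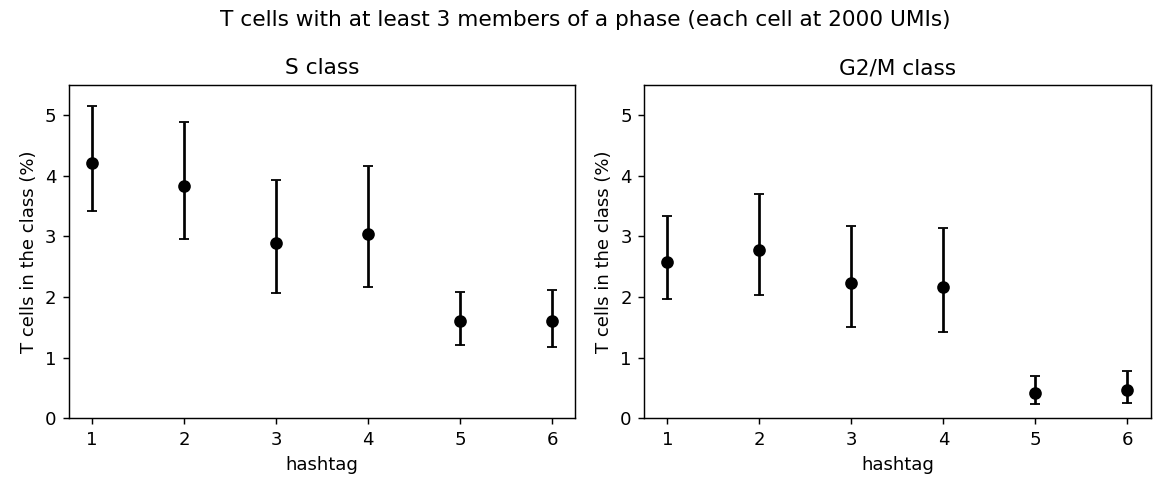
Share of T cells (%) in the S class (left) and the G2/M class (right) per hashtag, each cell thinned to 2000 UMIs; points are shares and bars exact 95% Clopper-Pearson intervals. Hashtags 5 and 6 are lowest in both panels, at 1.60% for the S class and at 0.415 and 0.467% for the G2/M class.

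The G2/M class cells were deep and many were called doublets. Their median depth was 9216 UMIs, against 3497 UMIs in cells of neither class, and cells of the S class alone had 3954. HTODemux called 44 of the 187 G2/M-class cells doublets (23.5%, 17.6 to 30.3%), against 11.1% of cells of neither class. Summed markers of other cell types were lower or higher in the G2/M class, depending on the type. Summed over their lists, 4 endothelial markers were at 28.2 CPM in the G2/M class and 61.8 CPM in neither class, 6 macrophage markers at 13.5 and 25.3 CPM, 4 stromal markers at 16.2 and 22.9 CPM, and 4 B cell markers at 5.96 and 6.81 CPM. The endothelial sum ranged over hashtags from 19.3 to 33.4 CPM in the G2/M class and from 38.8 to 83.3 CPM in neither class. Natural killer markers were at 1.08 CPM in the G2/M class and 7.88 CPM in neither class. Erythroid markers (13.0 and 7.42 CPM) and dendritic markers (12.5 and 3.60 CPM) were higher in the G2/M class, and the erythroid sum ranged from 0 to 105 CPM over hashtags there. In the G2/M class 2 of 4 B cell markers, 2 of 4 dendritic markers, 1 of 6 macrophage markers, 1 of 3 natural killer markers and 1 of 2 CD8 genes were at 0. The 6 T cell genes summed to 5017 CPM in the G2/M class and 5688 CPM in neither class, Cd4 stood at 135 CPM in the G2/M class and 167 CPM in neither class, and the 2 CD8 genes at 10.3 and 11.2 CPM. The part of depth, doublets and other cell types in the class was not tested.

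The G2/M members differed more between hashtags than the S members. Across all T cells the 20 G2/M members summed to 1063, 1028, 979 and 882 CPM in hashtags 1 to 4, and to 453 CPM in hashtag 5 and 477 CPM in hashtag 6. The 18 S members summed to 687, 613, 592 and 564 CPM in hashtags 1 to 4, and to 436 and 390 CPM in hashtags 5 and 6. The highest hashtag exceeded the lowest by a median of 3.88 times over the G2/M members (2.03 times for Hmgb2 to 6.37 times for Tpx2, a spindle assembly factor). For the S members the median was 2.01 times (1.25 times for Mcm4 to 8.24 times for Ccne2, where the lowest hashtag had 8 counts). In all 20 G2/M members and in 16 of the 18 S members, hashtags 1 to 4 were all above hashtags 5 and 6, Mcm4 and Ccne1 being the exceptions. That order was common among genes, since 45.2% of the 7565 genes at 10 CPM or more and 40.1% of those at 1 CPM or more showed it, so it is not particular to the cell cycle genes. These sums mix the number of dividing cells, the RNA of each and the RNA of other cells, and the part of each was not tested. In G2/M-class cells, which most of these genes chose, the G2/M sum was 9054, 9787, 10557, 10781, 9328 and 13277 CPM in hashtags 1 to 6. In cells of neither class it was 496, 433, 479, 434, 323 and 297 CPM.

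Among the S members, Pcna, the sliding clamp that holds DNA polymerase on its template, was the most abundant over all T cells, at 87.0 CPM, although Dut or Slbp was higher in each of hashtags 1 to 4. Pcna stood at 107, 91.3, 95.3, 91.7, 77.9 and 72.0 CPM in hashtags 1 to 6. Slbp, which binds histone mRNA, stood at 106, 99.7, 100, 92.6, 62.0 and 58.3 CPM, and Dut, which keeps uracil out of DNA, at 111, 103, 88.5, 92.1, 64.7 and 55.0 CPM. All 3 were lowest in hashtags 5 and 6. The MCM proteins form the ring-shaped replicative helicase. Mcm6 stood at 59.4, 53.2, 48.0, 49.0, 44.5 and 36.7 CPM, Mcm7 at 47.7, 39.8, 48.5, 39.9, 33.4 and 34.3 CPM and Mcm3 at 37.9, 30.0, 29.6, 33.0, 22.5 and 22.4 CPM. Their hashtag spread was narrow beside that of the mitotic genes. Mcm4 was nearly level, from 22.6 CPM in hashtag 6 to 28.2 CPM in hashtag 1. The E cyclins, which drive the entry to S phase, were low. Ccne1 stood at 5.55, 5.60, 6.47, 4.09, 3.23 and 4.74 CPM (25 to 57 counts per hashtag) and showed no gap between hashtags 1 to 4 and 5 to 6. Ccne2 stood at 4.62, 5.48, 2.82, 4.90, 1.34 and 0.665 CPM (8 to 45 counts). The licensing factor Cdc6 was the rarest S member at 1.93 CPM over all T cells.

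Among the G2/M members, Hmgb2, a DNA-bending chromatin protein, was far above the rest. Hmgb2 stood at 599, 527, 573, 473, 314 and 295 CPM in hashtags 1 to 6. Stmn1, which destabilises microtubules, stood at 94.7, 120, 90.7, 117, 37.1 and 50.8 CPM, and Top2a, the topoisomerase that untangles replicated chromosomes, at 58.8, 70.6, 57.3, 56.2, 17.4 and 24.0 CPM. Mki67, which coats mitotic chromosomes and is the usual proliferation marker, stood at 51.9, 56.0, 42.2, 38.9, 13.8 and 17.5 CPM. Ube2c, which passes ubiquitin to mitotic cyclins, stood at 51.5, 44.6, 40.8, 35.5, 10.2 and 16.0 CPM. Birc5 (survivin), of the chromosomal passenger complex, stood at 33.4, 38.2, 25.1, 29.9, 11.2 and 13.3 CPM, and Cdk1, the mitotic kinase, at 18.6, 16.4, 14.6, 12.1, 4.57 and 5.65 CPM. In each of these 7 genes hashtags 5 and 6 were lowest, and for Mki67, Top2a, Ube2c and Cdk1 the highest hashtag exceeded the lowest by more than 4 times. The checkpoint kinase gene Bub1 was the rarest G2/M member at 1.58 CPM over all T cells.

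**Figure D2:**
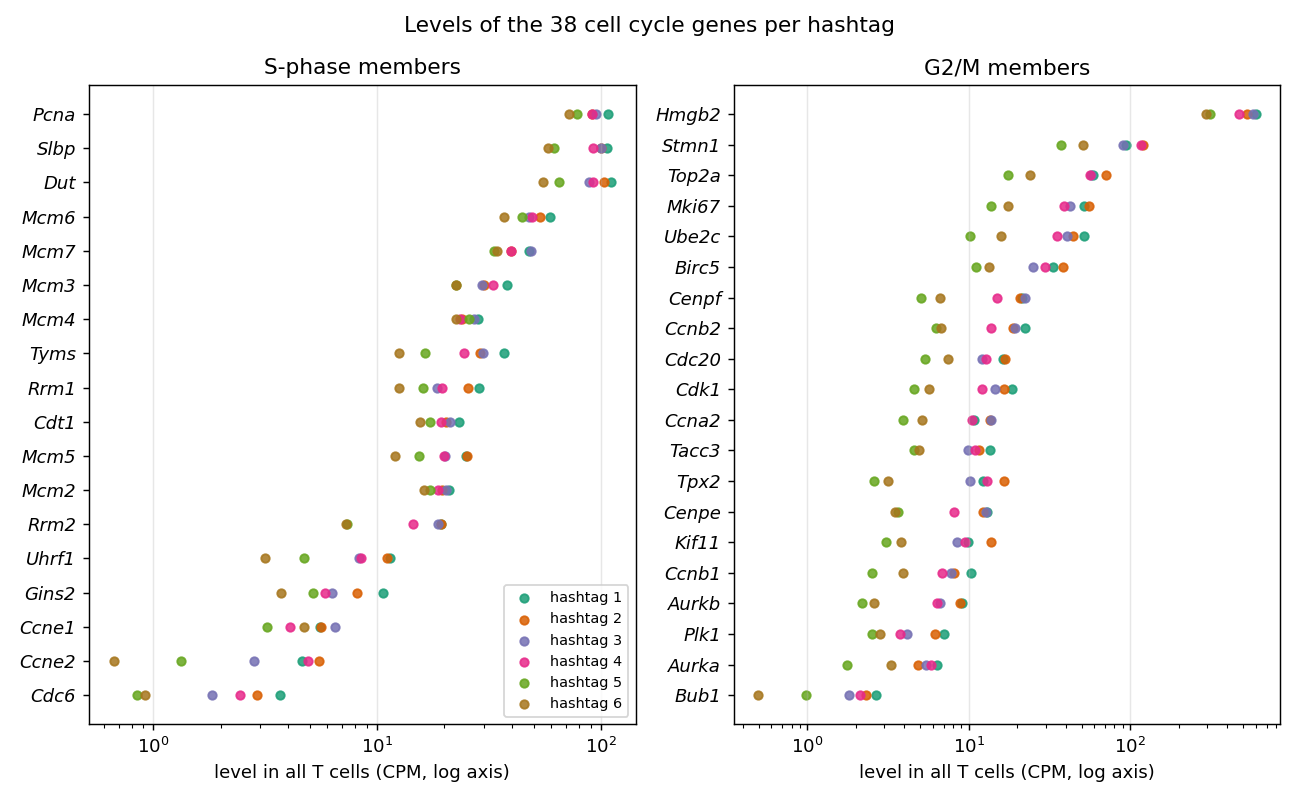
Levels of the 18 S members (left) and 20 G2/M members (right) in all T cells, 1 point per hashtag, in CPM on a log axis. The points of hashtags 5 and 6 lie left of the others for all 20 G2/M members, and the S members spread less, from 1.25 times for Mcm4 upwards.

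Detection shares show how widely the members were expressed. In cells thinned to 2000 UMIs, Hmgb2 was seen in 42.4% of T cells and Mki67 in 2.82%, Top2a in 3.44% and Pcna in 14.7% (median depth 3519 UMIs before thinning). In 64 endothelial-type barcodes (median 3669 UMIs), Hmgb2 was seen in 7.81% (2.59 to 17.3%), Top2a in 1.56% and Pcna in 14.1% (6.64 to 25.02%). Mki67 was seen in 0 of the 64, which allows a share of barcodes with a Mki67 UMI of up to 4.69%. Stmn1 was seen in 6.36% of T cells and 6.25% of these barcodes (1.73 to 15.2%). The T cell share was thus above the endothelial interval for Hmgb2, and not above the endothelial limits for Pcna, Stmn1, Top2a and Mki67. Of 13 macrophage-type barcodes 5 had Hmgb2 (38.5%, 13.9 to 68.4%), an interval that includes the T cell share. Of G2/M-class cells, 72.7% had Mki67, 66.8% Top2a, 35.8% Pcna and 99.5% Hmgb2, against 1.64%, 2.26%, 13.5% and 41.2% of cells of neither class.

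The share of a gene's UMIs that lay in the G2/M class varied widely between members. The 187 G2/M-class cells were 1.46% of the thinned T cells and held 3.50% of their UMIs. They held 84.3% of the Ccna2 UMIs (cyclin A2), 82.5% of Ube2c, 81.3% of Cenpf, which encodes a kinetochore protein, 80.5% of Birc5 and 67.2% of Mki67, which is a description since these genes chose the class. Hmgb2, Stmn1 and Tacc3, which did not choose it, had 29.4, 52.1 and 56.5% of their UMIs there. Of the S members, which did not choose it either, Rrm2, the regulatory subunit of ribonucleotide reductase, had 59.4% of its UMIs in G2/M-class cells, Ccne2 39.0%, Uhrf1 34.3%, Cdc6 33.0% and Tyms 30.9%. Pcna had 12.7% there, Slbp 9.82%, Cdt1 8.94% and Mcm4 7.66%. The S members thus ran from 7.66 to 59.4% in a class that they did not choose. Read likewise in the S class, which held 2.61% of the cells, the G2/M members had 20.1 to 57.5% of their UMIs.

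Each list was then read in the class chosen by the other list, against cells of neither class. Those cells were chosen to be low in both lists, so the ratios run high, and each list's median is also given below against all T cells outside the class. All 18 S members were higher in G2/M-class cells than in cells of neither class in all 6 hashtags, and 18.8% of 8155 genes were. Over all hashtags the median log2 ratio of the S members was 2.97, against 0.12 for all these genes. Rrm2 stood at 190, 227, 264, 218, 226 and 361 CPM in the G2/M-class cells of hashtags 1 to 6, against 4.37, 4.49, 5.42, 3.43, 2.72 and 2.04 CPM in cells of neither class. Over all hashtags that was 231 CPM (210 to 254) in G2/M-class cells and 3.42 CPM (2.92 to 3.97) in cells of neither class, a log2 ratio of 6.07 and the highest of the S list. Cdc6 (5.18), Ccne2 (4.92), Uhrf1, which reads hemimethylated DNA after replication (4.60), and Tyms, which makes thymidylate (3.92), followed on the same log2 scale. Against all T cells outside the G2/M class the log2 ratios were 5.33 for Rrm2, 4.13 for Ccne2, 3.84 for Uhrf1, 3.75 for Cdc6 and 3.62 for Tyms, so their order partly depends on the cells compared. Mcm4 had the lowest ratio (1.37), at 63.2, 40.1, 52.9, 47.9, 87.9 and 45.1 CPM in G2/M-class cells, against 22.2, 19.4, 21.5, 19.8, 22.7 and 20 CPM in cells of neither class. Cdt1 (1.58), Slbp (1.67) and Mcm2 (1.86) were next lowest. Within the helicase ring the log2 ratios were thus unequal, with Mcm5 at 3.12, Mcm7 at 2.86, Mcm3 at 2.62 and Mcm6 at 1.97. The others were Gins2, which tethers that helicase at the fork (3.48), Rrm1, the large subunit of ribonucleotide reductase (3.43), Ccne1 (3.08), Dut (2.62) and Pcna (2.13).

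All 20 G2/M members were higher in S-class cells than in cells of neither class in all 6 hashtags, and 16.2% of 8081 genes were. Their median log2 ratio over all hashtags was 5.04, against 0.10 for all these genes. Ccna2 stood at 87.9 CPM (76.5 to 100.4) in S-class cells and 0.950 CPM (0.698 to 1.26) in cells of neither class, a log2 ratio of 6.50. Bub1 (6.40), Aurkb, the kinase of the chromosomal passenger complex (5.90), and Birc5 (5.85) were close behind, while Hmgb2 was lowest at 2.65 (1899 CPM in S-class cells and 302 CPM in neither class). The Bub1 ratio rests on 11 counts (0.222 CPM) in cells of neither class. Mki67 stood at 274, 325, 396, 296, 202 and 341 CPM in the S-class cells of hashtags 1 to 6, against 13.2, 11.9, 9.83, 10.3, 6.42 and 5.93 CPM in cells of neither class. Cdk1 stood at 95.9, 109, 148, 69.7, 89.9 and 84.3 CPM in S-class cells, against 3.47, 3.04, 4.21, 3.43, 2.04 and 2.12 CPM in neither class. Within the S class hashtags 5 and 6 did not stand together below the others, with Mki67 lowest in hashtag 5 and second highest in hashtag 6. The cyclin genes Ccnb1 and Ccnb2, which activate Cdk1, had log2 ratios of 4.69 and 4.91, the kinases Aurka and Plk1 4.11 and 4.66, and the kinetochore motor gene Cenpe 4.63. Against all T cells outside the S class the highest G2/M ratios were those of Bub1 (4.76), Aurkb (4.204) and Ccna2 (4.11), and Hmgb2 was again lowest (2.36). Against all T cells outside the class that chose the cells, a comparison added after the values were seen, the median log2 ratios were 2.66 for S members and 3.58 for G2/M members.

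**Figure D3:**
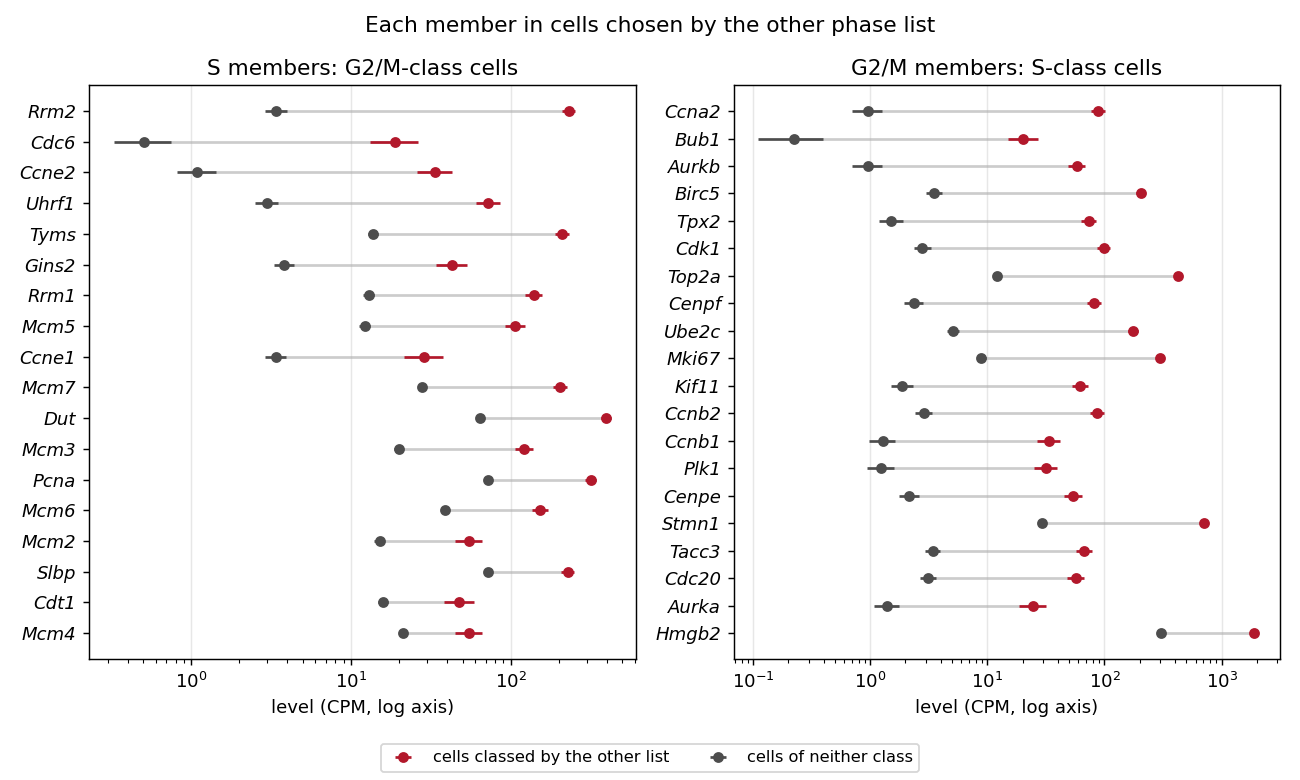
Levels in CPM (log axis) of S members in G2/M-class cells (left) and of G2/M members in S-class cells (right), in red, and in cells of neither class, in grey; bars are exact 95% Poisson intervals over all hashtags. Every red point lies right of its grey point, with Rrm2 (231 and 3.42 CPM) and Ccna2 (87.9 and 0.950 CPM) farthest apart and Mcm4 and Hmgb2 closest.

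The members were next compared between T cells with a UMI of a gate gene and naive-type T cells. The gates were Foxp3 (the Treg factor, 992 cells), Il1rl1 (3148), Cxcr3 (a type 1 chemokine receptor, 4525), Cxcr5 (the follicular homing receptor, 598) and Gzmk (a granzyme, 808). Naive-type cells (4124) had at least 2 of 6 naive markers and no UMI of a gate gene. The gates overlap, since 54.0% of Foxp3+ cells were Il1rl1+ and 54.1% of Gzmk+ cells were Cxcr3+, and all 5 share the naive-type cells. Of the naive-type cells, 1665 carried hashtag 5 and 1793 hashtag 6, so every ratio was taken within a hashtag. The median of all genes tested lay 0.15 to 0.23 above 0 on the log2 scale in the 5 comparisons, and the members' ratios are read against that.

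Summed levels were higher in the gated cells, more so for the G2/M list. The 18 S members were higher in Foxp3+, Il1rl1+, Cxcr3+ and Gzmk+ than in naive-type cells in 6 of 6 hashtags, with median log2 ratios of 0.56 (0.36 to 1.13), 0.56 (0.35 to 0.73), 0.69 (0.35 to 1.0) and 0.73 (0.38 to 1.01). The 20 G2/M members were higher in 6 of 6 hashtags as well, with median log2 ratios of 0.86 in Foxp3+ (0.33 to 2.49), 1.25 in Il1rl1+ (0.62 to 1.60), 1.45 in Cxcr3+ (0.86 to 1.81) and 1.32 in Gzmk+ cells (0.33 to 1.96). Hmgb2 alone gave 24527 of the 42253 G2/M counts over all T cells. Without Hmgb2, Stmn1 and Tacc3, the hashtag 5 sum was 45.8 CPM (23 counts) in Foxp3+ and 46.4 CPM in naive-type cells. Foxp3+ was thus not higher there. Without these genes Foxp3+ cells stayed higher in the other hashtags, and Il1rl1+, Cxcr3+ and Gzmk+ cells in every hashtag. Cxcr5+ cells could be compared in hashtags 1, 5 and 6 only, where S members had a median of 0.78 (higher in 3 of 3) and G2/M members 0.65 (−0.04 to 1.43, higher in 2 of 3). In Cxcr3+ cells the G2/M sum was 1367, 1195, 1344, 1076, 827 and 1052 CPM in hashtags 1 to 6, against 754, 445, 453, 516, 296 and 301 CPM in naive-type cells. In Foxp3+ cells it was 1456, 1070, 660, 876, 372 and 1690 CPM, so hashtags 5 and 6 were the lowest and the highest. In hashtag 6 the Foxp3+ gate held 80 cells deep enough to thin, of which 2 were G2/M-class, and in hashtag 5 it held 106, of which 0 were, which allows a share of up to 2.83%.

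With the gate and the class both read in 2000 UMIs, G2/M-class cells were 2.19% of Foxp3+ (10 of 457, 1.05 to 3.99%), 1.92% of Il1rl1+ (38 of 1979, 1.36 to 2.63%), 1.98% of Cxcr3+ (53 of 2672, 1.49 to 2.59%), 0.639% of Cxcr5+ (2 of 313, 0.0775 to 2.29%) and 2.16% of Gzmk+ cells (11 of 510, 1.08 to 3.83%). They were 0.194% of naive-type cells (7 of 3616, 0.0779 to 0.398%). Among the gates all intervals overlapped, and all but that of Cxcr5+ lay above that of naive-type cells. The share of all 12788 T cells, 1.46%, lay within the intervals of Foxp3+, Il1rl1+, Cxcr5+ and Gzmk+ cells. It lay just below the interval of Cxcr3+ cells. These shares mix hashtags, and of the 3616 naive-type cells 1475 carried hashtag 5 and 1576 hashtag 6. Within hashtag 5 the share was 0.781% in Cxcr3+ (4 of 512) and 0.0678% in naive-type cells (1 of 1475), and within hashtag 6 it was 1.44% in Cxcr3+ (5 of 347) and 0.190% in naive-type cells (3 of 1576). In hashtags 5 and 6 the other gates held few such cells, 0 of 54 and 0 of 43 Foxp3+, 1 of 102 and 0 of 73 Il1rl1+, 0 of 162 and 0 of 76 Cxcr5+, and 1 of 188 and 2 of 92 Gzmk+ cells. The pooled Foxp3+ share therefore rests on hashtags 1 to 4. In hashtag 1 the share was 2.003% in Cxcr3+ (15 of 749) and 1.38% in naive-type cells (2 of 145), with wide overlap.

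**Figure D4:**
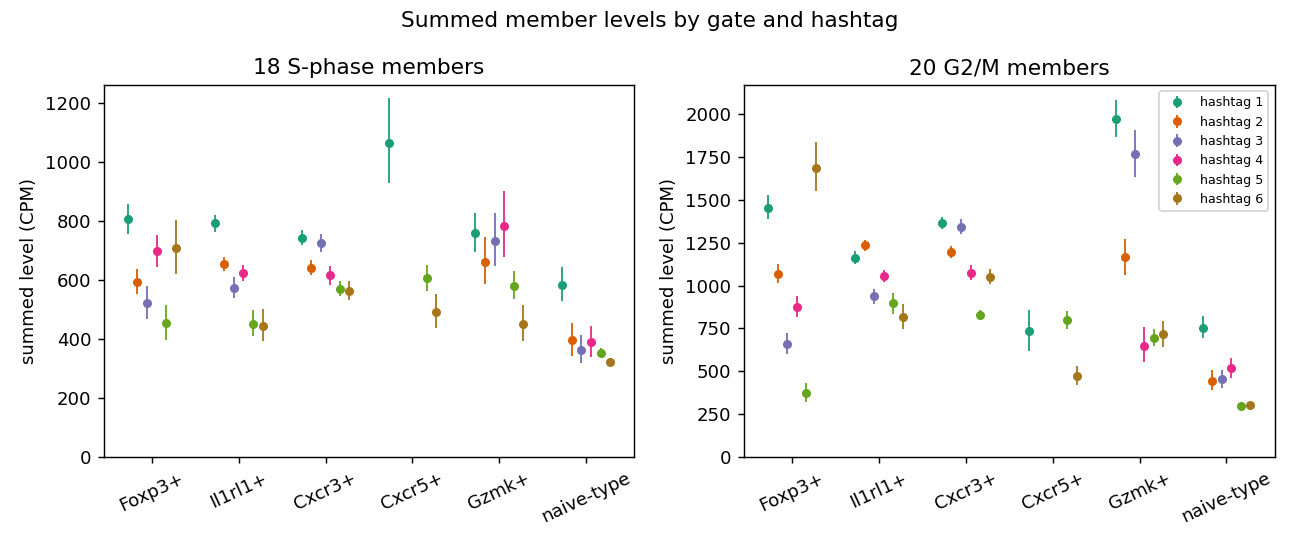
Summed levels (CPM) of the 18 S members (left) and 20 G2/M members (right) in T cells of 5 gates and in naive-type T cells, 1 point per hashtag with at least 50 cells; bars are exact 95% Poisson intervals. Naive-type cells are low in both panels, at 296 to 754 CPM for the G2/M list, while Foxp3+ cells run from 372 to 1690 CPM and Gzmk+ cells from 648 to 1974 CPM in that list.

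Single members were called when they passed 2-fold in one direction in every hashtag with 50 cells on each side, among genes at 10 CPM or more in the gate or in naive-type cells. No member was called lower in any gate, where 0.151% (Foxp3+), 0.038% (Il1rl1+), 0.192% (Cxcr3+), 0.279% (Cxcr5+) and 0.18% (Gzmk+) of genes were. In Il1rl1+ cells 4 members were called higher (Ccna2, Ccnb2, Birc5 and Tacc3), where 1.32% of genes were. In Cxcr3+ cells 5 were (Ccna2, Ccnb2, Birc5, Ube2c and Tacc3), where 0.653% of genes were. In Cxcr5+ cells 3 were (Tyms, Rrm2 and Uhrf1, with 1.6% of genes), in Gzmk+ cells 2 were (Uhrf1 and Kif11, with 0.488% of genes), and in Foxp3+ cells 0 were (with 1.21% of genes). The members called in Il1rl1+ and Cxcr3+ cells were all of the G2/M list and those in Cxcr5+ cells all of the S list. In each of these gates 14 S members passed the level filter. Of G2/M members, 17 passed it in Il1rl1+, 16 in Cxcr3+ and 8 in Cxcr5+ cells. Of G2/M members that passed the level filter, 16 of 16 were higher by any amount in every hashtag in Cxcr3+ cells (27.5% of all genes), 15 of 17 in Il1rl1+ cells (21.6%), 7 of 16 in Gzmk+ cells (15.3%), 2 of 8 in Cxcr5+ cells (35.7%) and 3 of 15 in Foxp3+ cells (18.7%). Rare members pass that filter mainly through the gate where they are high, so these counts, the calls and their split by list are a description. With the gate itself read in 2000 UMIs, the members called higher numbered 1 for Foxp3+, 0 for Il1rl1+, 3 for Cxcr3+, 0 for Cxcr5+ and 5 for Gzmk+ cells, so the calls changed with the depth at which a gate was read. They also changed with single hashtags. Without hashtag 1 the counts were 12 for Il1rl1+, 11 for Cxcr3+, 1 for Gzmk+ and 1 for Foxp3+, and without hashtag 3 the count was 1 for Foxp3+. Without hashtag 4 they were 8 for Gzmk+ and 7 for Cxcr3+. Without hashtag 5 they were 5 for Foxp3+ and 4 for Gzmk+, and without hashtag 6 the count was 5 for Cxcr5+.

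The members with the largest median ratios were mostly of mitosis. Ube2c stood at 74.9, 55.5, 64.2, 45.5, 27.4 and 46.6 CPM in the Cxcr3+ cells of hashtags 1 to 6, against 35.0, 4.12, 3.08, 11.01, 3.68 and 7.40 CPM in naive-type cells, a median log2 ratio of 2.75. The naive-type cells of hashtag 1 had 25 Ube2c counts, and 3 of their 164 cells deep enough to thin were G2/M-class. Ccna2 stood at 16.2, 17.5, 24.9, 12.6, 9.69 and 15.8 CPM in Cxcr3+ cells, against 0, 2.06, 1.54, 1.84, 2.06 and 2.28 CPM in naive-type cells. Those naive-type levels rest on 0 or 1 count in each of hashtags 1 to 4. Birc5 stood at 47.2, 44.6, 41.4, 39.7, 28.8 and 43.5 CPM in Cxcr3+ cells, against 6.997, 4.12, 6.17, 18.4, 5.45 and 6.12 CPM in naive-type cells (median log2 ratio 2.71), and in Il1rl1+ cells its median was 2.33. Cxcr3+ cells were above naive-type cells in every hashtag for these 3 genes.

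In Il1rl1+ cells Kif11, the spindle motor, Ccna2 and Ube2c had the largest medians. Kif11 was not higher in hashtag 3 (4.30 CPM in Il1rl1+ and 4.63 CPM in naive-type cells). In Foxp3+ cells Ccna2, Tacc3, a spindle protein, and Ube2c had the largest medians, and hashtag 5 broke the pattern. There, Ccna2 and Tacc3 had 0 counts in Foxp3+ cells, against 14 and 22 counts in naive-type cells, and Ube2c stood at 3.98 CPM (2 counts) in Foxp3+ and 3.68 CPM in naive-type cells. In Gzmk+ cells Ccnb2, Birc5 and Cdc20, which activates the anaphase-promoting complex, had the largest medians. All 3 were lower in the Gzmk+ cells of hashtag 4 (0, 3 and 0 counts) than in its naive-type cells (3, 10 and 4 counts). In Cxcr5+ cells Tyms stood at 78.2, 34.2 and 15.7 CPM in hashtags 1, 5 and 6, against 19.6, 8.84 and 6.54 CPM in naive-type cells. Cdk1, next in Cxcr5+ cells, had 0 counts in those of hashtag 6, and Uhrf1 stood at 39.1, 10.0 and 5.22 CPM (8, 12 and 3 counts), against 8.40, 3.09 and 1.71 CPM in naive-type cells.

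The other genes of the pathway were read in the cycling class against cells of neither class, where 3.29% of 8061 genes were called higher by 2-fold in every hashtag and 0.062% lower. The median of all genes lay at 0.04 on the log2 scale. Of 31 further replication genes that passed the level filter, 28 were called higher, with a median log2 ratio of 2.69, and of 42 further mitosis genes, 38 were, with a median of 4.88. Large ratios among the replication genes were those of Pclaf, a PCNA partner (6.69, at 407 and 3.74 CPM in the cycling class and neither class), and Mcm10 (5.89). Among the mitosis genes they were Hmmr (7.21), the depolymerising kinesin Kif2c (6.65) and the kinase Pbk (6.41). Pttg1, which encodes securin, the guardian of sister chromatid cohesion, was singled out after its values were seen. It stood at 76.9 CPM in the cycling class and 73.5 CPM in neither class (median log2 ratio 0.07, −0.29 to 0.21). All 12 chromatin and histone genes were called higher, led by H3c3 (6.96), H2ac4 (6.93) and the linker histone H1f5 (6.92, at 412 CPM in the cycling class and 2.93 CPM in neither class). Histone gene copies are near-identical, so counts of single histone genes are uncertain. The cells were chosen on cell cycle genes, so higher levels of genes that move with them follow in part from the choice.

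Of 17 transcription factors 8 were called higher, E2f1, E2f2, E2f3, E2f7, E2f8, Tfdp1, Mybl2 and Foxm1. E2f8 (median log2 ratio 6.13), Foxm1 (4.74) and E2f7 (4.67) had the largest ratios, E2f7 and E2f8 being repressors among the E2F factors. E2f8 stood at 19.7, 33.1, 25.01, 30.4, 25.2 and 39.6 CPM in the cycling class of hashtags 1 to 6, against 0.385, 0.434, 1.20, 0.190, 0.227 and 0.177 CPM in cells of neither class. Myc, which drives growth of activated T cells, stood at 30.5, 31.8, 27.5, 35.1, 12.6 and 6.09 CPM in the cycling class, against 33.0, 41.4, 34.3, 42.1, 19.9 and 20.7 CPM in neither class. It was lower in 6 of 6 hashtags and was not called (median log2 ratio −0.35), and lower levels in every hashtag were seen in 10% of genes. Of 10 G1 cyclin and kinase genes 0 were called. Ccnd2 (cyclin D2) stood at 453, 472, 365, 580, 393 and 399 CPM in the cycling class, against 685, 786, 688, 771, 561 and 498 CPM in neither class, lower in 6 of 6 hashtags (median log2 ratio −0.55). Ccnd3 (cyclin D3) stood at 218 CPM in the cycling class and 204 CPM in neither class (0.11, higher in 4 of 6 hashtags). Skp2, which targets p27 for destruction (1.69), Cdk4 (1.04) and Cdc25a (1.03) were higher in 6 of 6 hashtags and short of 2-fold in at least 1.

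Of 16 brake and checkpoint genes 3 were called higher. Chek1, the replication checkpoint kinase, had a median log2 ratio of 4.87, at 18.5 CPM in the cycling class and 0.505 CPM in neither class. Wee1, the kinase that holds Cdk1 inactive and a known target of the circadian clock in mouse liver, stood at 26.6, 30.5, 20.01, 42.1, 15.1 and 36.5 CPM in the cycling class, against 8.35, 5.79, 5.42, 9.14, 2.42 and 2.39 CPM in neither class (median log2 ratio 2.28). In cells of neither class Wee1 was thus lowest in hashtags 5 and 6. Over all T cells, 40.1% of genes at 1 CPM or more had hashtags 1 to 4 all above hashtags 5 and 6. Cdkn2c (p18) was the other gene called (1.94, at 62.6 CPM in the cycling class and 13.7 CPM in neither class). Cdkn2a, the gene of p16 and p19ARF, had a median of 1.99 and was not called, with 0 counts in the cycling class of hashtag 6. Cdkn1a (p21) stood at 92.5, 151, 45.0, 143, 15.1 and 3.04 CPM in the cycling class, against 71.8, 94.7, 43.7, 95.7, 6.50 and 3.097 CPM in neither class, so its hashtags 5 and 6 were far below the others in both. In the cycling class its level rests on 6 counts in hashtag 5 and 1 count in hashtag 6. Cdkn1b (p27), which helps keep resting T cells outside the cycle, stood at 99.3, 112, 105, 143, 95.7 and 94.3 CPM in the cycling class, against 165, 167, 151, 161, 133 and 113 CPM in neither class. It was lower in 6 of 6 hashtags (median log2 ratio −0.50), as were the antiproliferative genes Btg1 (−0.82, at 652 CPM in the cycling class and 1221 CPM in neither class), Btg2 (−0.78), Tob1 (−0.42) and Tob2 (−0.41). Btg1, Btg2, Tob1 and Tob2 were named after their values were seen. Of the 16 genes, 5 were lower in every hashtag (10% of all genes) and 5 were higher in every hashtag (19.4% of all genes). The median log2 ratio of the 16 was 0.36.

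**Figure D5:**
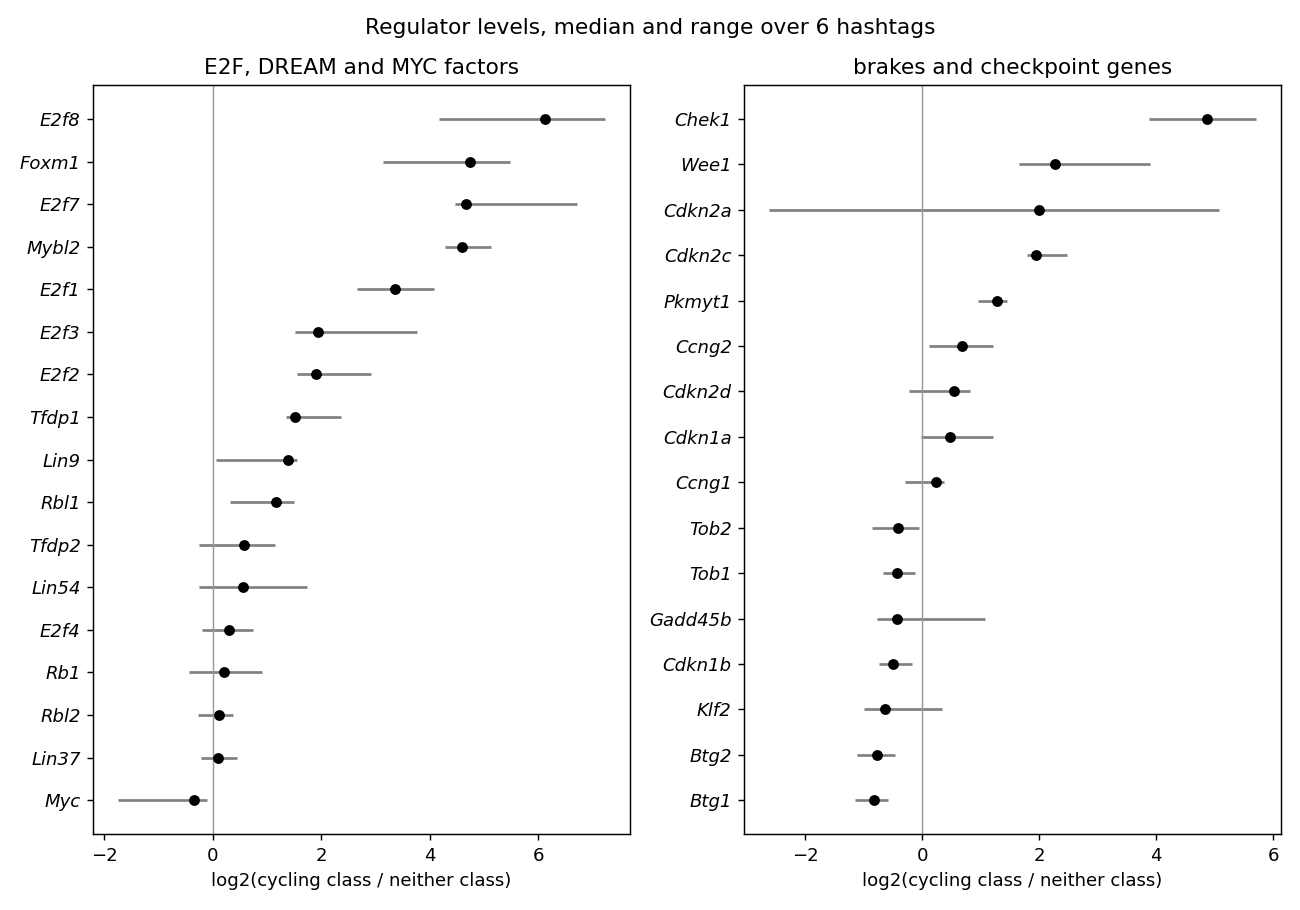
Median log2 ratio of the cycling class over neither class for transcription factors (left) and brakes (right) at 10 CPM or more in either, with bars for the range over 6 hashtags. E2f8 and Chek1 lie farthest to the right, and Myc, Cdkn1b, Btg1, Btg2, Tob1 and Tob2 lie below 0 over their whole range.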

How the data were processed

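Per the labels' protocols, sorted CD4+ T cells were hashed, pooled and prepared with the 10x 3′ v3.1 kit. The deposited gene expression matrix holds raw UMI counts per gene and barcode, and its header names cellranger 4.0.0; mm10, Seurat 3 and Cell Ranger 6.0 are listed in the submitters' processing notes. The second deposited matrix holds raw counts of each hashtag per barcode, made with a tool not given in the sources used here. Both libraries share 22952 barcodes.

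Barcodes with under 500 genes or 10% or more mitochondrial UMIs were left out. T cells had at least 2 UMIs over 6 T cell genes and under 3 over B, macrophage, endothelial and stromal markers. The leading hashtag needed 10 counts and 2 times the next. HTODemux (Seurat 5.3.0, R 4.3.3, quantile 0.99) called 12134 of the 15218 tagged T cells singlets, 1505 doublets and 1579 negatives, of which 1338 led with hashtag 6. Doublets were kept, and HTODemux singlets are an alternative. Cells were thinned to 2000 UMIs with a fixed seed, and 2430 shallower T cells left out. UMI totals per hashtag were 6023040 to 14230843.

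Log2 ratios used a prior count of 0.5 scaled to the totals of both groups, so that equal CPM gives 0. An unscaled prior, used at first, raised genes of the smaller group and is given as an alternative. The ratio and the thinning were tested on simulated data. Sums, shares and intervals were computed with scipy 1.17.1, pandas 2.3.3 and numpy 2.4.6 under Python 3.11.15, and figures with matplotlib 3.10.9. With 1 library and unassigned hashtags, no p-value was computed, and nothing says how many animals were pooled.

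The genes given by hashtag are the 6 members with the highest CPM in each list plus Mki67, Top2a, Cdk1, Pcna, Ccne1 and Ccne2. From each other list they are the 3 genes with the largest absolute log2 ratio at 10 CPM or more, plus Cdkn1a, Cdkn1b, Wee1, Myc, Ccnd2 and Ccnd3, and per gate the 3 members with the largest absolute median ratio. A gene that this rule names among the replication genes is not reported here. The members and lists were chosen with earlier results of these data known. Of the 12 histone and chromatin symbols, 9 were matched through synonyms in the RefSeq gene table. Promoter sequences and motif shares come from the RefSeq table of GRCm38.p6.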

Additional observations from a re-analysis of the deposited data

Results flagged for a closer look

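Cells that no comparison used also held a G2/M signal. Among T cells with no leading hashtag, 66 of 3939 were in the G2/M class (1.68%, 1.30 to 2.13%), against 187 of 12788 T cells with a leading hashtag (1.46%, 1.26 to 1.69%). These intervals overlap, and the cells without a leading hashtag were deeper, with a median of 5794 against 3519 UMIs. Among barcodes outside the T cell rule, 48 of 1627 were in the G2/M class (2.95%, 2.18 to 3.89%), at a median of 6317 UMIs. The part of depth, doublets and cell type in these shares was not tested.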

How the results depend on the processing

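Some orders changed with the processing. In the G2/M class hashtag 5 lay below hashtag 6 in thinned cells (0.415 and 0.467%) and above it on all UMIs (0.740 and 0.581%). In the S class hashtag 1 lay above hashtag 2 in thinned cells (4.22 and 3.83%) and below it on all UMIs. Without Hmgb2, Stmn1 and Tacc3, the G2/M sum of hashtag 5 was not higher in Foxp3+ than in naive-type cells (45.8 and 46.4 CPM). On all UMIs the S class took 8.88, 10.9, 8.25, 10.6, 7.32 and 5.32% of hashtags 1 to 6, and the G2/M class 0.740% of hashtag 5. With 2 members enough, the S class took 13.8, 11.3, 11.9, 11.1, 9.54 and 8.48%, and the G2/M class 3.45, 4.27, 3.42, 0.889 and 0.901% of hashtags 1, 2, 3, 5 and 6. With 4 needed, the S class took 1.95, 1.73, 1.34, 1.36, 0.533 and 0.334%.

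Members called higher per gate varied most. With the gate in 2000 UMIs they numbered 1 (Foxp3+), 0 (Il1rl1+), 3 (Cxcr3+), 0 (Cxcr5+) and 5 (Gzmk+). At 1.5-fold they numbered 1, 10, 15, 6 and 4 in the same order. A prior count of 2 left 3 in Cxcr3+ and 0 in Gzmk+ cells, and an unscaled prior, chosen after seeing the data, gave 4 in Gzmk+ cells. Median-of-ratios size factors gave 1 in Cxcr3+ cells. HTODemux singlets gave 2 in Foxp3+, 8 in Cxcr3+ and 5 in Gzmk+ cells. Leaving out each hashtag in turn gave 0 to 5 in Foxp3+, 4 to 12 in Il1rl1+, 5 to 11 in Cxcr3+, 4 to 5 in Cxcr5+ and 1 to 8 in Gzmk+ cells. The cause was not tested.

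Summed levels moved as follows. HTODemux singlets gave 1034, 952, 845 and 408 CPM for G2/M members in hashtags 1, 3, 4 and 5, and 531 CPM for S members in hashtag 4. Cells of at most 15000 UMIs gave 619, 560, 570, 542 and 416 CPM for S members in hashtags 1 to 5, and 919, 896, 895, 401 and 457 CPM for G2/M members in hashtags 1, 2, 3, 5 and 6. Without Slbp, Dut, Hmgb2, Stmn1 and Tacc3, S members summed to 470, 410, 403, 379, 309 and 277 CPM and G2/M members to 356, 369, 305, 280, 97.0 and 126 CPM in hashtags 1 to 6. The same change gave G2/M log2 medians of 2.14 in Il1rl1+ and 2.39 in Cxcr3+ cells over naive-type cells. With the gate in 2000 UMIs the S log2 median of Cxcr5+ cells was 0.43. Against all T cells outside the S class, chosen after seeing the data, the G2/M members' median log2 ratio was 3.58.

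No paired analysis was possible because the 2 libraries are of different kinds and no hashtag has a replicate. Rare members rest on few counts, and Cxcr5+ cells reached 50 cells on both sides in 3 hashtags.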
